A study of Mus musculus with 11 samples.

Results

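Of the 466039 bins of 500 bases in which captured liver DNA was counted, 734 held no read in any of the 6 DBA/2J libraries while every one of the 5 C57BL/6J libraries had reads there. They make up 0.157% of the bins. The members were chosen by the measured counts themselves, as the bins in which the count was 0 in all DBA/2J libraries, so their difference between the strains is a description and not a finding. The study compared liver DNA methylation of 2 inbred mouse strains at several ages. The DBA/2J libraries came from 2 females of 108 days, 2 females of 341 days, a male of 345 days and a female of 708 days. The C57BL/6J libraries came from 2 females of 107 days (replicates 1 and 2), a male of 308 days (replicate 3) and 2 females of 711 days (replicates 4 and 5). The labels give no treatment, transgene or mutation, and all libraries hold genomic DNA of liver. Whether every library is a separate animal is not stated, so p-values measure the spread between libraries, which may be technical.

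The reference assembly of the mouse was made from C57BL/6J, and reads of every strain are placed on it. A sequence that another strain lacks, or that differs too much from the reference, then yields no placed read. Much of what differs between inbred mouse strains lies in mobile elements (endogenous retroviruses, long interspersed elements and processed pseudogenes, the genomic copies of spliced messenger RNA) and in gene clusters that expand and contract, such as those of immune and chemosensory receptors. Here DNA was captured by a methyl-CpG-binding domain, which holds methylated CpGs, the sites where a C is followed by a G. A count of 0 in such data arises from sequence that is absent, from sequence that could not be placed and from sequence that is not methylated, and these cannot be told apart from the counts alone. How reads that fit several places were treated is not given in the sources used here.

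The next sequences, shown because a processed pseudogene can be read from its letters, come from 3 members in such pseudogenes. They are printed from the reference assembly (GRCm38, the mm10 build), in the sense of the parent gene's messenger RNA. The case switches at each place where 2 exons of the parent meet, with the first exon shown in lower case and the next in capitals. In the parent gene an intron lies at each switch, and in these members none does. Gm5182 is a copy of Acaca, the gene of acetyl-CoA carboxylase 1, which makes malonyl-CoA for fatty acid synthesis. The stretch covers parts of exons 21 to 24 of the 54 exons of Acaca and differs from its transcript at 3 of 300 bases. Gm12892 is a copy of Ckb, the gene of brain-type creatine kinase, and its stretch runs from exon 4 to exon 6 of 8 with 12 differing bases. Gm5578 is a copy of Brox, which encodes a protein with a BRO1 domain, and its stretch runs from exon 8 to exon 12 of 14 with 3 differing bases.
Gm5182, chr12:10154101-10154400, plus strand: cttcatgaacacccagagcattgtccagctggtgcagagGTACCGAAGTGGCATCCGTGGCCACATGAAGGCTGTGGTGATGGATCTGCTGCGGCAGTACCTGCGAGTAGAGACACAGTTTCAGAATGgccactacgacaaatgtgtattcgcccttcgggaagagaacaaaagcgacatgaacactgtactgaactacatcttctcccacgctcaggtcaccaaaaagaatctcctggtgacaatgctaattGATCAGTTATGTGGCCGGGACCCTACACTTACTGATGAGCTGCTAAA
Gm12892, chr4:122008601-122008900, plus strand: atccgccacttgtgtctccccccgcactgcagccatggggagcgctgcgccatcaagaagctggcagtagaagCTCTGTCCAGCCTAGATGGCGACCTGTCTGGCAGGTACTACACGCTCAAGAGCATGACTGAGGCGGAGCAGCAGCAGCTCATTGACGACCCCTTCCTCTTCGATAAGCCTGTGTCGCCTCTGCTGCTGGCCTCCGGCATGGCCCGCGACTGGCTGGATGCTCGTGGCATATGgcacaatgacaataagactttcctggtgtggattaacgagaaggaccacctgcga
Gm5578, chr6:112606101-112606400, plus strand: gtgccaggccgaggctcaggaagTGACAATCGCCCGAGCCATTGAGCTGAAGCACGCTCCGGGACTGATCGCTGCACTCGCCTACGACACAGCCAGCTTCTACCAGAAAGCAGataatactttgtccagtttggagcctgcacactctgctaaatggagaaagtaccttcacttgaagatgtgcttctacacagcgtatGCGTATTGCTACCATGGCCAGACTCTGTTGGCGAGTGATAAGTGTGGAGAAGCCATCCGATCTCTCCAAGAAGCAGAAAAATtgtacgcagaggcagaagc

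Other members hold a border between sequence found once in the assembly and sequence found at several places. Of the 734 members, 82 had at least 90% of their first or last 100 bases covered by 32-mers found more than once and at most 10% of the 100 bases at the other end. The 3 sequences below come from such members, chosen after their values were seen. Capitals mark bases covered by a 32-mer that occurs more than once in the assembly. The repeated part of the member on chromosome 19 begins within the stretch and covers 171 of the 300 bases. It covers 256 bases of the stretch on chromosome 7 and 240 bases of the stretch on chromosome 1.
Member on chromosome 19, chr19:51649601-51649900, plus strand: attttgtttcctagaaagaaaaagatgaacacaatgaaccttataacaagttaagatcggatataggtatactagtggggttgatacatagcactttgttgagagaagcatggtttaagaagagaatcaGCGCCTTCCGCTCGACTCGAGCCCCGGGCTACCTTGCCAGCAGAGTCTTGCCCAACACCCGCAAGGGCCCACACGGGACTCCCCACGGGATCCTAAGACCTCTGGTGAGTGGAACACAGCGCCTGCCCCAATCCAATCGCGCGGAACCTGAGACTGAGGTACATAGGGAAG
Member on chromosome 7, chr7:33536101-33536400, plus strand: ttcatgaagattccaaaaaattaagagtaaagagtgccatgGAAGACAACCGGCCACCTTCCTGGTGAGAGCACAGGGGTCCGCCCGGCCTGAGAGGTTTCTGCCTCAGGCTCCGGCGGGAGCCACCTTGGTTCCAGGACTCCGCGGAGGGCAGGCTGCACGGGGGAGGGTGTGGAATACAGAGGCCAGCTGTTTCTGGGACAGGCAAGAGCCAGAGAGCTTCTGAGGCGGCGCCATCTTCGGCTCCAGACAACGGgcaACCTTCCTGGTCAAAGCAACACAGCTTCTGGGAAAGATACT
Member on chromosome 1, chr1:108911601-108911900, plus strand: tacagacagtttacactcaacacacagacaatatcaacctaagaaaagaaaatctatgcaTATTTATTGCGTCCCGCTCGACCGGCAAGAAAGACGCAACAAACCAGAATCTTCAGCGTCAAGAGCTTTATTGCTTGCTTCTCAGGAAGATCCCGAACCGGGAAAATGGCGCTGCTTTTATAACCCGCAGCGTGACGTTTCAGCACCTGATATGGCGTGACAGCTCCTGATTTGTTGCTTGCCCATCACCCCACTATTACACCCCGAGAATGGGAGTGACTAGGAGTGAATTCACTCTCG

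A smaller part of the members held no repeated sequence. Across all of their 32-mers, 64 members had none that occurs elsewhere in the assembly. The next 3 sequences come from such members, and their capitals mark the CpGs that the capture can hold. The stretch on chromosome 10 belongs to a run of 6 members and has 7 CpGs. The stretches on chromosomes 8 and 4 had the most C57BL/6J reads among members without a repeated 32-mer, with 155 and 135 reads for their whole bins, and they hold 8 and 4 CpGs.
Member on chromosome 10, chr10:93612101-93612400, plus strand: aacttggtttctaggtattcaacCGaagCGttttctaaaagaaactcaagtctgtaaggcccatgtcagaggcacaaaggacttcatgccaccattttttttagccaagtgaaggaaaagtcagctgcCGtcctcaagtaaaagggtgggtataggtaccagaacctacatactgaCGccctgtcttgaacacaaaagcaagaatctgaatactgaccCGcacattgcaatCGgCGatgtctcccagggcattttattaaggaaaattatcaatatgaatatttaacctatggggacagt
Member on chromosome 8, chr8:35281101-35281400, plus strand: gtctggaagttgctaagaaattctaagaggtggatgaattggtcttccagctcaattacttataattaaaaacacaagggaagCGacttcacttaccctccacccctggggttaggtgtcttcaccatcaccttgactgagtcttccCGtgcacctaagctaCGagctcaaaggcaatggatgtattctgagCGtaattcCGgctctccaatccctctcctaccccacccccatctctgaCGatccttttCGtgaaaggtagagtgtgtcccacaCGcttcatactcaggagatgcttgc
Member on chromosome 4, chr4:122037601-122037900, plus strand: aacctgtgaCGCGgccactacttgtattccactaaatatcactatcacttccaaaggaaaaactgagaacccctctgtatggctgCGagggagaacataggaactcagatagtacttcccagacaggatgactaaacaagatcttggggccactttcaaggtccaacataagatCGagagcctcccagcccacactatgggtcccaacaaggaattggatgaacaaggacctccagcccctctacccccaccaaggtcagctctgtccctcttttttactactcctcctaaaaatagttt

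Depth was alike in the strains. Total reads were 6.89 to 8.54 M in the DBA/2J libraries and 7.08 to 8.34 M in the C57BL/6J libraries, and the median bin held 13 to 16 reads in each library. In any single DBA/2J library 0.354% to 0.521% of all bins were at 0, against 0.0309% to 0.116% in the C57BL/6J libraries. The table starts at 40 reads per bin, summed over the 11 libraries, and at 3 CpGs, and in every bin at least 2 libraries had 12 or more reads. A member had to meet both limits in the 5 C57BL/6J libraries alone, while other bins could meet them over all 11. Absent sequence with fewer reads could not appear, and the members' levels and order among the C57BL/6J libraries are bound by this floor. Of all bins, 388065 (83.3%) reach the floor in C57BL/6J alone, and they serve as the fairer background below, a choice made after the values were seen.

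The members were well covered in C57BL/6J. Their reads summed over the 5 libraries ranged from 40 to 539 with a median of 76, beside a median of 70 over all bins and of 78 over the other bins that reach the same floor. No member was at 0 in any C57BL/6J library. Per library the median member had 14, 11, 17, 17 and 18.5 reads in replicates 1 to 5, and 0 reads in each DBA/2J library. In CPM (counts per M reads, scaled by TMM library sizes) the median level of the members was 2.03 ± 0.329 (SD, n = 5 libraries), against 1.9 ± 0.0446 over all bins. With 0 reads in 47.28 M reads of the pooled DBA/2J libraries, and 3 reads taken as the upper limit that a count of 0 allows, the limit was 0.063 CPM. Set against this limit, the median member was at least 31.7-fold lower in DBA/2J and the highest at least 223-fold. The lowest bound, 16.7-fold, is set by the floor of 40 reads. These bounds describe the rule's own values, cover counting error only and support nothing further.

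**Figure D1:**
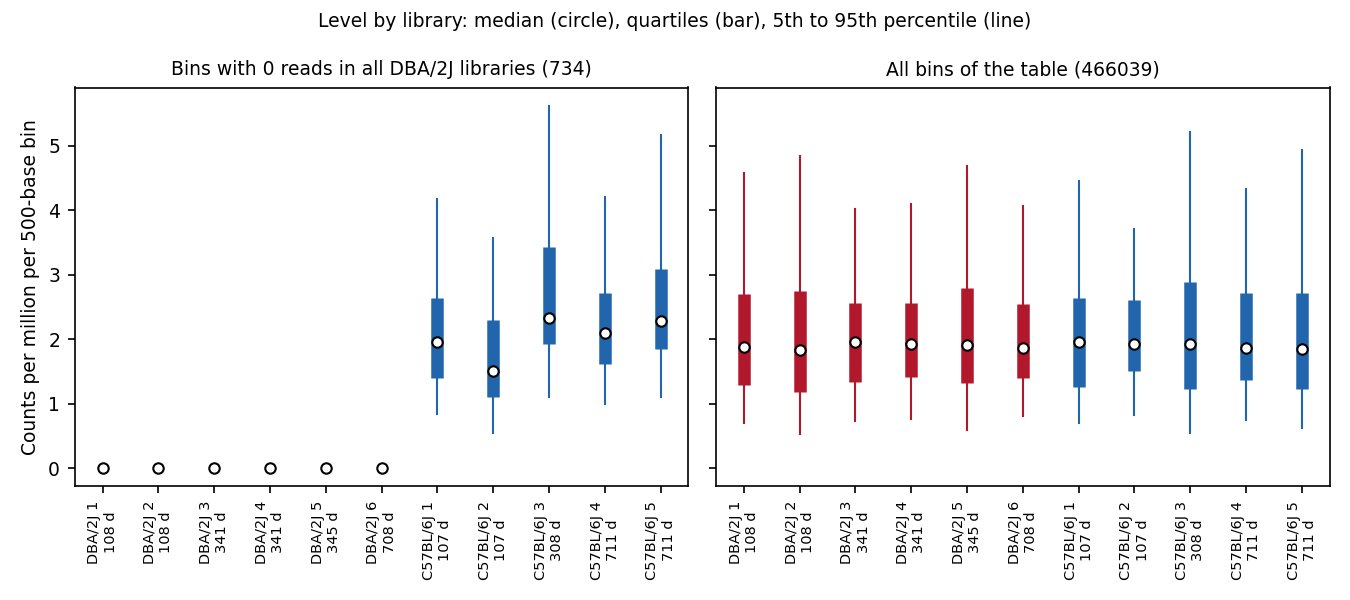
CPM per bin in each library, for the 734 members (left) and for all 466039 bins (right); circles are medians, bars span the quartiles and lines the 5th to 95th percentile, with DBA/2J in red and C57BL/6J in blue. The members lie at 0 in all 6 DBA/2J libraries and at medians of 1.51 to 2.33 in C57BL/6J, while all bins have like medians in every library.

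The C57BL/6J libraries differed in the members' level. The members together had 1602, 1268, 2098, 1687 and 1941 CPM in replicates 1 to 5. Replicate 2 was the lowest, and it was the lowest library in 380 of the 734 members (51.8%) against 24.8% of all bins and 27.8% of bins on the same floor. Replicate 3, the male of 308 days, was the highest in 301 members. Capture of CpG-rich bins moved with this order: bins with over 20 CpGs had 1.21 times the mean count of all bins in replicate 2, against 1.69 to 2.16 times in the others. Its part in the members' order was not tested.

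The counts of 0 were also compared between the 6 DBA/2J libraries, all of which entered the choice of the members. When each DBA/2J library was left out in turn, 800 to 835 bins were at 0 in the other 5. Of these bins, 87.9% to 91.8% were also at 0 in the left-out library, against 0.354% to 0.521% of all bins. Those at 0 in the left-out library are the 734 members themselves, so these shares describe the rule's own counts and support nothing further. The exceptions held mostly 1 read, and the highest count among them was 6, in a table whose median bin had 13 to 16. Bins with no read in C57BL/6J were far fewer, 7 in all, and 4 of the 7 had 35 or more CpGs.

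Just outside the rule lay 404 bins with a single DBA/2J read, then 305 with 2 and 220 with 3. The C57BL/6J reads of the 404 had a median of 74, close to the 76 of the members. The highest of them, on chromosome 7 at chr7:34032501-34033000, had 1 read in DBA/2J replicate 2 and 47, 37, 54, 64 and 67 reads in C57BL/6J. Next came chr12:88092001-88092500 and chr14:51382501-51383000, with 267 and 260 C57BL/6J reads and 1 DBA/2J read each. Both lie inside or beside a run of members described below. The bins chr12:88097001-88097500 and chr9:38413001-38413500 had 241 and 225 C57BL/6J reads.

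In a fit of the strain difference over the whole table (edgeR quasi-likelihood, terms for sex and age class), 7448 of 466039 bins were called lower in DBA/2J at an adjusted p below 0.05, which is 1.6% of bins, and 0.79% (3684) were called higher. The count of higher bins was 2112 without DBA/2J replicate 5, 2202 without replicate 6 and 2302 without C57BL/6J replicate 3. All 734 members were among the lower bins, as the rule fixes, and they made up 9.85% of them. Nothing is read from that count. The other 6714 lower bins held at least 1 DBA/2J read and served for comparison.

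The members were richer in CpGs and in repeated sequence than the table as a whole. The median member had 12 CpGs (quartiles 9 and 17) against 9 in all bins. The share of bins that were members rose with CpG number, from 0.0717% of bins with 3 to 5 CpGs through 0.0901%, 0.198% and 0.491% to 1.25% of bins with over 20. Among bins on the same floor it rose from 0.107% to 1.34%. Soft-masked bases, which the assembly marks as repetitive, made up a median of 58.9% of a member against 12.6% of any bin. At least 90% of the bases were masked in 191 members (26%), against 1.71% of all bins. Of 30 evenly spaced 32-mers per bin, a median of 46.7% occurred more than once in members and 0% in all bins. All 30 were found once in 83 members (11.3%) and in 71.5% of all bins, or 72.1% of the other bins on the same floor. GC content was near equal, 48.6% against 47.8%.

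The bins called lower that did hold DBA/2J reads were in between. Their median was 11 CpGs, 27.2% masked bases and 6.67% repeated 32-mers. The 404 bins with 1 read were further from the table than the members themselves, with medians of 15 CpGs, 77.2% masked bases and 60% repeated 32-mers. These are counts of bins without a test, since neighbouring bins share fragments.

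**Figure D2:**
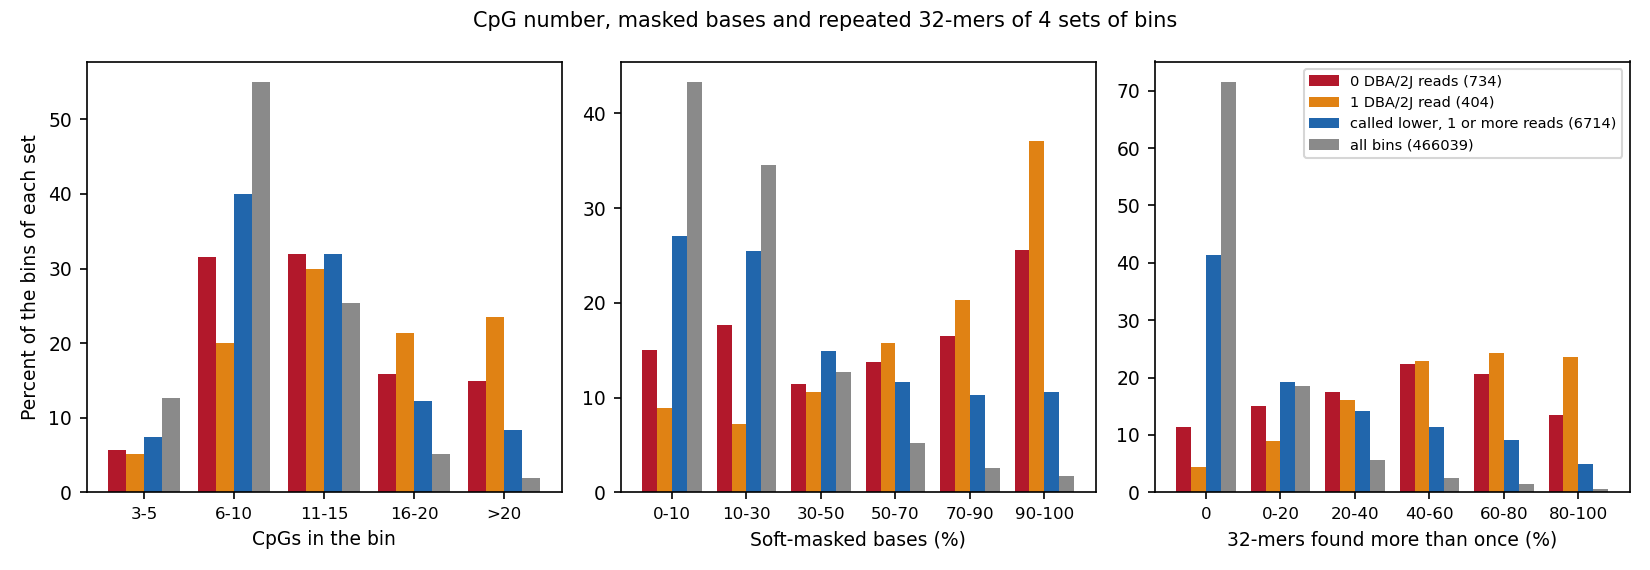
Percent of bins by CpG number, by soft-masked bases and by share of repeated 32-mers, for the members, the bins with 1 DBA/2J read, the other bins called lower in DBA/2J and all bins. Members fill the right-hand classes more than all bins do: 14.9% of them have over 20 CpGs against 1.86%, and 11.3% have no repeated 32-mer among 30 against 71.5%.

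Where members were CpG-rich, their level in C57BL/6J was lower than that of other bins of the same CpG number. With 16 to 20 CpGs the median member had 1.92 CPM against 3.57 in other bins on the same floor, and with over 20 CpGs it had 2.06 against 3.58. With 6 to 10 CpGs the medians were 1.89 and 1.87. Set against bins of the same CpG class, the members' summed reads were 0.828, 0.756, 0.958, 0.876 and 0.916 of the expected sum in replicates 1 to 5, so all 5 libraries lay below 1. The relative methylation score, which the MEDIPS package corrects for CpG number, had a median of 0.569 in members and 0.608 in all bins. It was 0.464 against 0.524 in bins with over 20 CpGs. In DBA/2J the score was 0 in all members, whose counts there are 0 by the rule, so nothing on methylation is read from it.

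Most members lay away from annotated genes. By GENCODE M21, 478 members (65.1%) were outside gene bodies against 31.7% of all bins, 159 (21.7%) were in introns against 41.5%, and 91 (12.4%) overlapped exons of noncoding genes against 4.83%. Coding exons were nearly free of members: 4 members (0.545%) overlapped one, against 19.2% of all bins. A further 2 members overlapped an untranslated exon. In all, 252 genes had a member in the body or within 5 kb upstream, and 99 of these are protein-coding.

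The 4 coding members were in Fam47e, Gm4353, Vmn1r1 and Skint9. The member in Fam47e, at chr5:92562001-92562500, had 21, 17, 29, 24 and 26 C57BL/6J reads, 15 CpGs and no repeated 32-mer among 30. The member in Gm4353, at chr7:116083501-116084000, had 13, 10, 8, 11 and 18 reads, and 70% of its 32-mers were repeated. Vmn1r1, a vomeronasal receptor gene, held a member at chr1:182157001-182157500 with 8, 7, 15, 15 and 11 reads. Skint9 held a member at chr4:112386501-112387000 with 15, 10, 4, 15 and 8 reads. Each of these bins had reads in every C57BL/6J library and none in DBA/2J, and 3 of the 4 had no repeated 32-mer among 30.

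The members were unevenly spread over the autosomes. Chromosome 12 held 112 of them, 0.553% of its bins, followed by chromosome 4 with 87 (0.278%), chromosome 7 with 69 (0.27%) and chromosome 14 with 60 (0.339%). Chromosomes 9, 15, 18 and 19 held 7 each, which is 0.0276% to 0.0495% of their bins. Only 335 of 2403 megabases with a bin had a member. In 9 megabases with at least 10 members lay 157 members (21.4%) but 0.139% of all bins. Outside these there were 1.24 members per 1000 bins.

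The densest region was that of the Skint genes on chromosome 4. Skint genes encode membrane proteins related to butyrophilins, and Skint1 is needed for the maturation of a class of skin T cells. From chr4:112058001 to 113964000, which is 1906 kb, the table had 61 bins, and 43 of them were members. These 61 bins held 120 DBA/2J reads in all, against 5445 C57BL/6J reads. At most 5 DBA/2J reads were found in 57 of them, and the bin with most had 53. In the 30 bins in or near a Skint gene, 17 were members (56.7%), 27 were called lower, these 17 included, and 1 higher. Skint6 had 6 members among 9 bins, Skint5 had 4 among 10, Skint3, Skint4 and Skint9 had 2 each and Skint11 had 1. The Skint6 members together had 91, 64, 125, 129 and 127 C57BL/6J reads, a summed level of 14 ± 3.37 CPM (SD, n = 5). Of these 6, 3 also lie in Gm12818, a processed pseudogene inside Skint6 whose best transcript hit is Minpp1, at 97.2% identity.

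**Figure D3:**
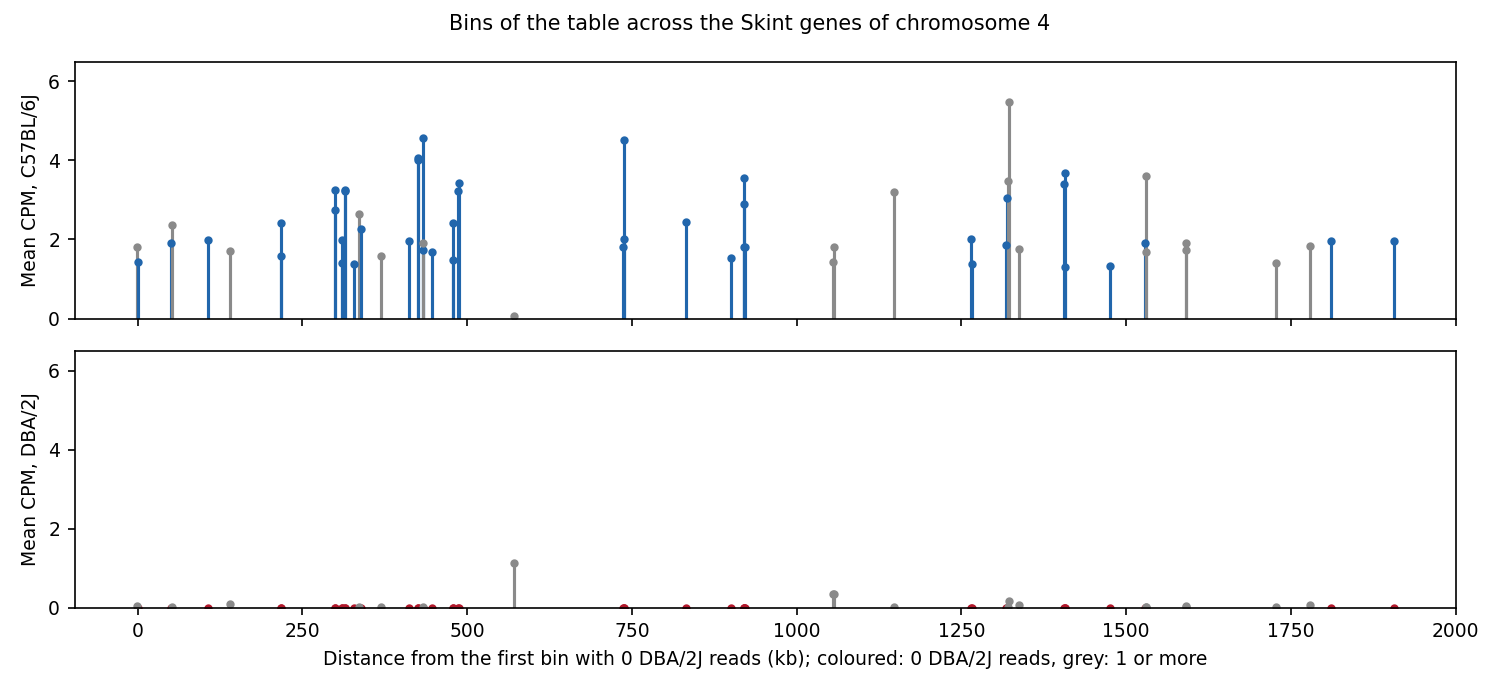
Mean CPM of each bin of the table across the Skint genes, in C57BL/6J (upper) and DBA/2J (lower), against distance in kb from the first member; blue and red points are members and grey points are bins with 1 or more DBA/2J reads. Nearly all bins that the table holds in these 1906 kb are covered in C57BL/6J and near 0 in DBA/2J. The rule fixes the 0 in DBA/2J for the 43 members, and the sequence between the bins shown has no counts. A single grey bin is covered in DBA/2J and near 0 in C57BL/6J.

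Chromosome 12 held 5 of the 9 dense megabases. From 19 to 20 Mb, 22 of 30 bins were members and 27 of the 30, these 22 included, were called lower. The mean level in DBA/2J, with the members' counts of 0 included, was 5.4% of that in C57BL/6J. The next megabase had 18 members among 49 bins and 45 lower bins, these 18 included, with DBA/2J at 38.3%, members included. It includes Zfp125 and 3110053B16Rik, overlapping pseudogenes that share the same 6 members among 7 bins, with 80, 81, 88, 87 and 122 C57BL/6J reads. The megabase before had 10 members and 33 lower bins, these 10 included, among 49.

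The immunoglobulin heavy chain locus lies near the end of chromosome 12 and holds the variable gene segments that B cells rearrange. From 115 to 116 Mb, 16 of 30 bins were members and 28, these 16 included, were called lower. DBA/2J stood at 3.23% of the C57BL/6J level, with the members' counts of 0 included. Of the 24 bins in or near a heavy chain segment, 9 were members (37.5%), 14 were called lower, these 9 included, and 3 higher. Ighv8-7 and Ighv8-10 had 2 members each, of which 1 each overlapped the segment. The other members lay within 5 kb upstream of a segment and not in it, 2 at Ighv5-6, 2 at Ighv1-79 and 1 at Ighv1-70. The pair at Ighv5-6 lies in exons of Gm9517 and the pair at Ighv1-79 in exons of Gm9256, which are processed pseudogenes. None of the 24 bins at kappa light chain segments was a member, and at the share of all bins (0.157%) 24 bins would hold 0.0378. Whether the heavy and kappa loci differ was not tested. The lncRNA Gm30948, beside Ighv8-7, had 4 members among 5 bins in its body or within 5 kb upstream, with 97, 58, 99, 64 and 87 C57BL/6J reads. Of these 4, 2 lay in its body, and the others lay upstream and are those already counted at Ighv8-7.

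Other receptor families also held members in their genes or within 5 kb upstream, at shares above the 0.157% of all bins. No test is given for these shares, since neighbouring bins share fragments. The natural killer gene complex on chromosome 6 had 4 members among 53 bins (7.55%), and all 4 were in Klra17, which encodes a Ly49-type lectin receptor. Of these 4, 2 lay in exons of Gm44248, a processed pseudogene inside Klra17. Klra17 had 5 bins in all, and its members had 73, 60, 54, 68 and 57 C57BL/6J reads, a summed level of 8.25 ± 1.21 CPM (SD, n = 5). T cell receptor segments had 3 members among 68 bins (4.41%), all upstream of a segment and none in it, at Trav4-2, Trav7-3 and Trav8-1. The member at Trav8-1 lies in an exon of Gm18711, a processed pseudogene. Vomeronasal type 2 receptors had 6 among 159 (3.77%), of which 4 were at Vmn2r-ps111, and type 1 receptors had 1 among 94 (1.06%). Olfactory receptors had 7 among 709 (0.987%), at Olfr1039 and Olfr319 with 2 each and at Olfr66, Olfr651 and Olfr752-ps1. Only the member at Olfr66 lay in the gene body, in an exon of the processed pseudogene Dnajc19-ps, and the others lay upstream.

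For gene families of liver metabolism the count was 0, in too few bins to set it apart from the table. No member was found among 406 bins at Cyp genes, 27 at Ugt genes, 110 at Sult genes, 111 at Gst genes or 30 at Ces genes, which encode enzymes that oxidise, conjugate or hydrolyse drugs and lipids. At the share of all bins, these 684 bins would hold 1.08 members. The families did include bins called lower, with 4, 5, 3, 6 and 0 in the same order. The 14 bins at the Mup genes of urinary proteins and the 83 at H2 genes held none, where 0.022 and 0.131 would be held at that share, and at H2 genes 5 bins were called lower and 11 higher. Serpins of the a and b classes had 2 members among 83 bins, where 0.131 would be held at that share. Of these, 1 lay upstream of Serpina1b and 1 in an intron of Serpinb2, upstream of Serpinb10. Zinc finger genes had 10 among 4072, of which 6 were at Zfp125, and Trim genes had 1 among 663, at Trim30d. At the share of all bins these would hold 6.41 and 1.04. No member lay among 85 bins at Nlrp genes, 43 at Slfn, 15 at Raet1 and H60 or 71 at defensin genes. None lay among 128 bins at interferon-induced, 418 at protocadherin and 12 at Speer genes. At the share of all bins each of these families would hold 0.0189 to 0.658 members, too few to set a count of 0 apart. Predicted Gm gene models had 156 members (0.273% of their bins) and Rik clones had 25 (0.149%), beside 0.157% of all bins.

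Members often lay side by side. With starts at most 1000 bases apart, the 734 members formed 546 runs: 408 single bins, 115 pairs, 13 runs of 3 and 10 runs of 4 or more. The longest run covered 7500 bases at chr12:88091501-88099000, outside annotated genes and 7.37 kb from Gm16368. It had 12 members among 14 bins of the table, and the other 2 held 1 DBA/2J read each. Its members had 366, 328, 491, 403 and 498 C57BL/6J reads in replicates 1 to 5. Its mean level was 4.57 CPM per bin, with bins from 1.56 to 6.17. Only 15.9% of its bases were masked and 12% of its 32-mers were repeated, both below the medians of the members.

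The run of 8 members at chr5:104924001-104928500 lay 6.56 kb from Abcg3, a transporter gene. All 8 bins of the table were at 0 in DBA/2J, and they had 203, 164, 214, 226 and 190 C57BL/6J reads, a range that holds no order by age. A mean of 63.3% of its bases was masked. The megabase around it had 19 members among 247 bins, yet DBA/2J stood at 79.6% of the C57BL/6J level over the whole megabase. The run of 6 at chr10:93611501-93615000, 21.8 kb from Snrpf, had 83, 89, 103, 100 and 103 reads, and 12.9% of its 32-mers were repeated.

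Of the 3 runs of 5 members, 2 lay wholly or partly in processed pseudogenes. The run at chr4:122008001-122010500 reaches beyond Gm12892, which holds 3 of its 5 members, and had 218, 173, 357, 351 and 379 C57BL/6J reads. The run at chr12:10153501-10156500 lies in Gm5182 and had 145, 105, 143, 196 and 190 reads. The third, at chr14:44247501-44250500 in an intron of the lncRNA Gm32857, had 85, 88, 120, 118 and 134 reads, and the 5 members were all the bins that this gene had. Runs of 4 lay in an intron of Gm7247 and Vmn2r-ps111 on chromosome 14, at chr12:19717001-19719000, at chr4:122033501-122035500 and in Skint6. The first of these had 170, 105, 232, 152 and 309 reads, which spread over a wider range than the run at chr4:122033501-122035500, with 76, 104, 88, 107 and 83.

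Introns of protein-coding genes held further groups of members. Golm1, which encodes a Golgi membrane protein, had 5 members among 37 bins, all between chr13:59654001 and 59659000 in introns. They had 101, 86, 113, 87 and 145 C57BL/6J reads, a summed level of 14 ± 2.85 CPM (SD, n = 5). Masked bases made up 0% to 18.4% of these 5 bins, and 4 of the 5 had no repeated 32-mer. Mctp1, which encodes a protein with C2 domains, had 4 members among 19 bins, and 3 of them were masked over 76.6% to 92.4% of their bases. The fourth, at chr13:76514001-76514500, had no masked base, yet all its 32-mers occurred more than once.

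The highest member overall was chr4:122008501-122009000 in Gm12892. It had 78, 57, 134, 133 and 137 C57BL/6J reads, or 14.1 ± 4.51 CPM (SD, n = 5), and 24 CpGs. After it only the highest member of each run was counted. The member at chr14:51383501-51384000 followed with 58, 32, 84, 43 and 97 reads, or 8.25 ± 3.46 CPM. Next came chr5:104921501-104922000 with 51, 35, 70, 59 and 63 reads and 7.31 ± 1.71 CPM. The member at chr6:112606001-112606500 in Gm5578 had 55, 19, 63, 65 and 70 reads and 7.11 ± 2.55 CPM. In each of these 4 members replicate 2 was the lowest library. The other 8 of the 12 highest members counted in this way had 196 to 264 reads. Of these 8, 4 lay in exons of processed pseudogenes (Gm5182 with 2, Gm13127 and Gm15528).

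Exons of processed pseudogenes held 67 members, 9.13% of the members against 1.22% of all bins. Put the other way, 1.18% of the 5663 bins in such exons were members, beside 0.157% of all bins. In the strain fit 5.33% of these 5663 bins were called lower and 0.689% higher, beside 1.6% and 0.79% of all bins. The lower share includes the 67 members, which the rule fixes as lower. Of the 6714 lower bins that held DBA/2J reads, 235 (3.5%) lay in such exons, against 1.22% of all bins. The 67 members fell in 45 loci, and at 29 loci every bin that the table held was a member. At most of these 29 the table held only 1 bin, as at Gm9260 and Gm13702. There the choice of loci by their members fixes this.

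A parent transcript was found for 44 of the 45 loci by alignment to protein-coding transcripts. At 39 loci the alignment ran across at least 1 exon-exon junction. Identity to the parent ranged from 70.4% to 100% with a median of 96.7%, and it was at least 98% at 20 loci. Gm5884 matched Tom1, an endosomal trafficking gene, at 100% over 500 bases and 4 junctions, with 34, 29, 29, 17 and 42 C57BL/6J reads. Gm15429 matched Aph1a, a subunit of gamma-secretase, at 99.9%, and Gm9517 matched Ankrd12 at 99.6% over 1000 bases. Gm5578 matched Brox at 99.4% over 1498 bases and 12 junctions, with 113, 51, 143, 133 and 155 reads in its 3 members. Gm5182 matched Acaca at 98.8% over 3528 bases and 23 junctions, and its 7 members had 196, 144, 220, 237 and 264 reads. Its other 4 bins held the 4 DBA/2J reads of the locus. At the other end Gm13702 matched Rpl6, a ribosomal protein gene, at 70.4%.

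Further loci are named here after their values were seen. Gm5292 matched Rpl15, Gm12760 matched Rpl21, and Gm48974 and AC110262.2 both matched Rpl7a, all genes of the large ribosomal subunit. Gm8203 matched H2afz, a histone variant gene, at 99.7%, and Gm46996 matched H3f3a at 91.4%. Gm9260 matched Odc1, the ornithine decarboxylase of polyamine synthesis, at 95.8%. Gm5514 matched Ldhb, a lactate dehydrogenase subunit, at 98.2%. Each of these had 0 DBA/2J reads in its member and 62 or more reads over the C57BL/6J libraries.

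No coding exon bin of the parent genes was called different between the strains. The 42 parents had 148 tested bins over their coding exons, and edgeR's quasi-likelihood fit called 0 of them in either direction, beside 1.1% of all coding exon bins. These 148 bins are too few to set 0 apart from that share, and equal levels were not tested. At an unadjusted p under 0.05 in the same fit there were 5 of them (3.38%), against 10.1% of all bins, coding or not, and DESeq2 called 0. Their median log2 difference was 0.04. Where a copy and its parent are nearly identical, reads of the one can be counted at the other, and how far that happened was not tested.

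**Figure D4:**
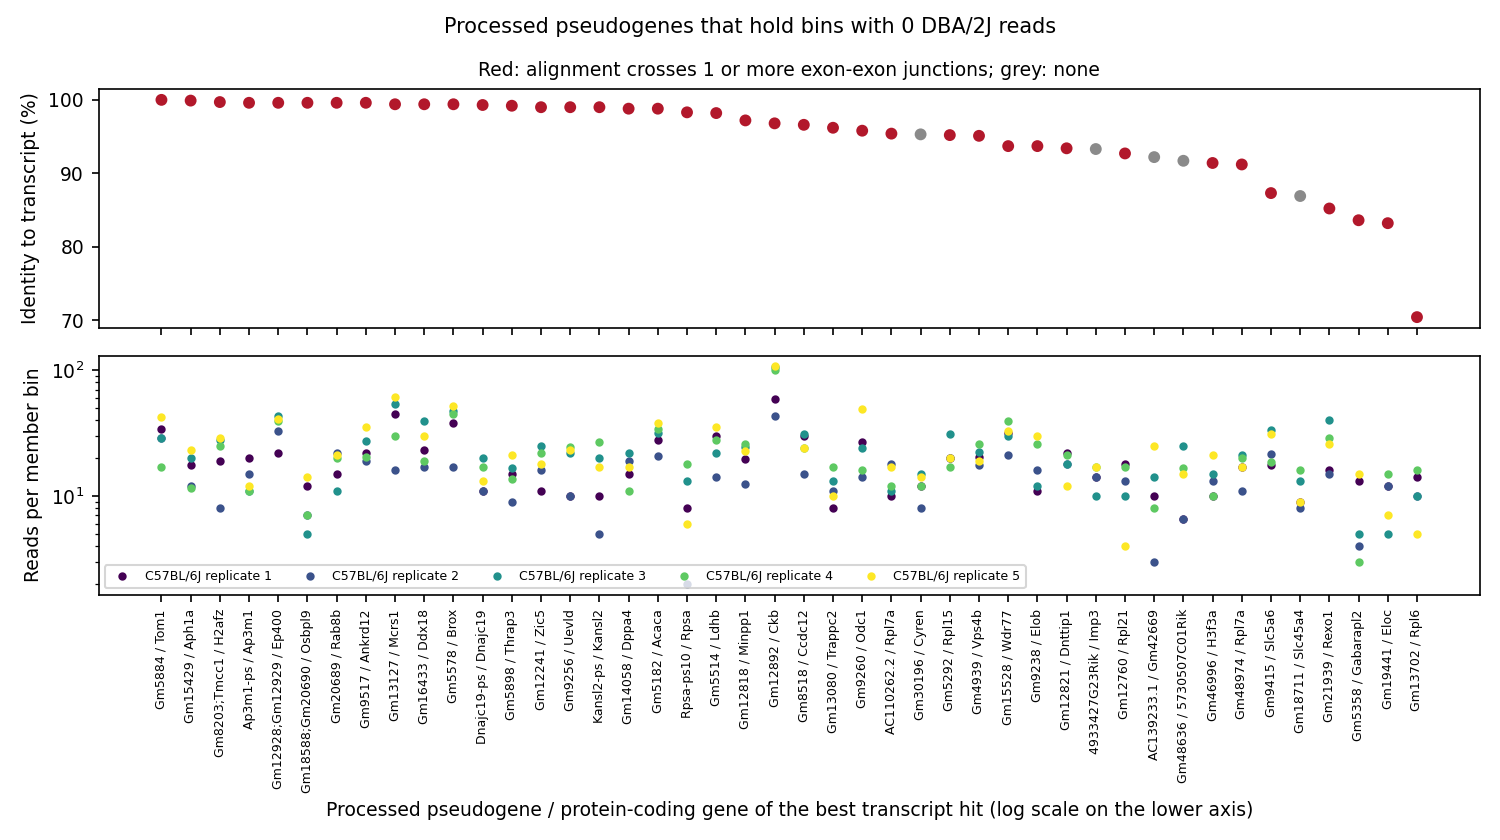
The 44 processed pseudogenes with a parent transcript, ordered by identity: identity in percent (upper; red where the alignment crosses an exon-exon junction) and reads per member bin in each C57BL/6J library (lower, log scale). Identity falls from 100% at Gm5884 to 70.4% at Gm13702, and 39 of the 44 loci are red.

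Members also shared sequence with each other. By alignment of at least 90% identity over at least 200 bases, 286 members (39%) had a partner among the members, in 30 groups. The largest group joined 101 members on 17 chromosomes. Its median member was masked over 95.8% of its bases and had 17 CpGs, and 81.7% of its 32-mers occurred more than once. The second joined 58 members on 18 chromosomes, the next 25 on 11 and the fourth 17 on 8. Together these 4 held 201 members (27.4%). The member printed above from chromosome 19 belongs to the second group, that from chromosome 7 to the third and that from chromosome 1 to the fourth. The files name no repeat family, so none is given for these groups.

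The 3 largest shared groups had like levels in C57BL/6J, and the fourth was higher than these in each library. Median CPM in replicates 1 to 5 was 1.67, 1.1, 2.33, 1.86 and 2.22 in the largest group and 1.6, 1.1, 2.06, 1.86 and 1.97 in the second. It was 1.67, 1.1, 2.47, 1.98 and 1.97 in the third and 2.23, 1.79, 2.61, 2.1 and 2.96 in the fourth. Replicate 2 was the lowest library in all 4 groups, as it was over all members. Of the members of these groups, 81, 39, 22 and 10 were outside gene bodies. A group of 6 members differed from these: all 6 were on chromosome 12, with 10% masked bases and 51.3% repeated 32-mers in the median member.

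Some members had a second copy nearby in the same direction, which is how the long terminal repeats at the ends of a retrovirus-like element are arranged. At least 100 of the 32-mers of a bin recurred on the same strand 3 to 10 kb away in 39 members (5.31%), against 0.373% of all bins and 9.41% of the 404 bins with 1 DBA/2J read. Of the 39 members, 18 were in the largest shared group. The copy lay at 6500 to 7000 bases in 8 of the 39, beside 448 of all 1737 bins with such a copy, so this distance does not set the members apart.

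Divided so that each member counts once, 67 members were in processed pseudogenes and 282 others shared sequence with another member. A further 146 were masked over at least 50% of their bases, and 84 more had at least 20% repeated 32-mers. No repeated 32-mer was present in 62 of the rest, and 93 fitted none of these classes. Median C57BL/6J reads were 95 in the pseudogene class, 72 in the shared class and 72 in the class without repeats. The class without repeats had a median of 8.5 CpGs and the shared class 16.

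Bins beside the members were low in DBA/2J as well. Of the 734 members, 269 had no directly adjacent bin in the table, 390 had 1 and 75 had 2. The 184 adjacent bins that were not members themselves had a median of 3 DBA/2J reads and 90 C57BL/6J reads. DBA/2J stood at 2.33% of the C57BL/6J level in the median adjacent bin. Of the 184, 176 (95.7%) were called lower, beside 1.6% of all bins. A captured fragment can reach into the next bin, so this is the same measurement extended and not a separate one. Of 7 members with bins of the table on both sides that were not members, all 14 neighbours were called lower.

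The deficit faded over a few kb. The median DBA/2J level was 34.5% of that in C57BL/6J at 1 kb from the nearest member, 76.3% at 1.5 to 2 kb, 69.9% at 2.5 to 3 kb and 90.7% at 3.5 to 5 kb. Beyond 200 kb it was 99.6%. The share of bins called lower fell from 48.2% at 1 kb to 19.7% at 3.5 to 5 kb and 13.6% at 5.5 to 10 kb. It was still 4.42% at 50.5 to 200 kb against 1.21% beyond. Among bins at 1 kb the quartiles were 4.74% and 85.1%, a spread from nearly empty to near the level of C57BL/6J.

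**Figure D5:**
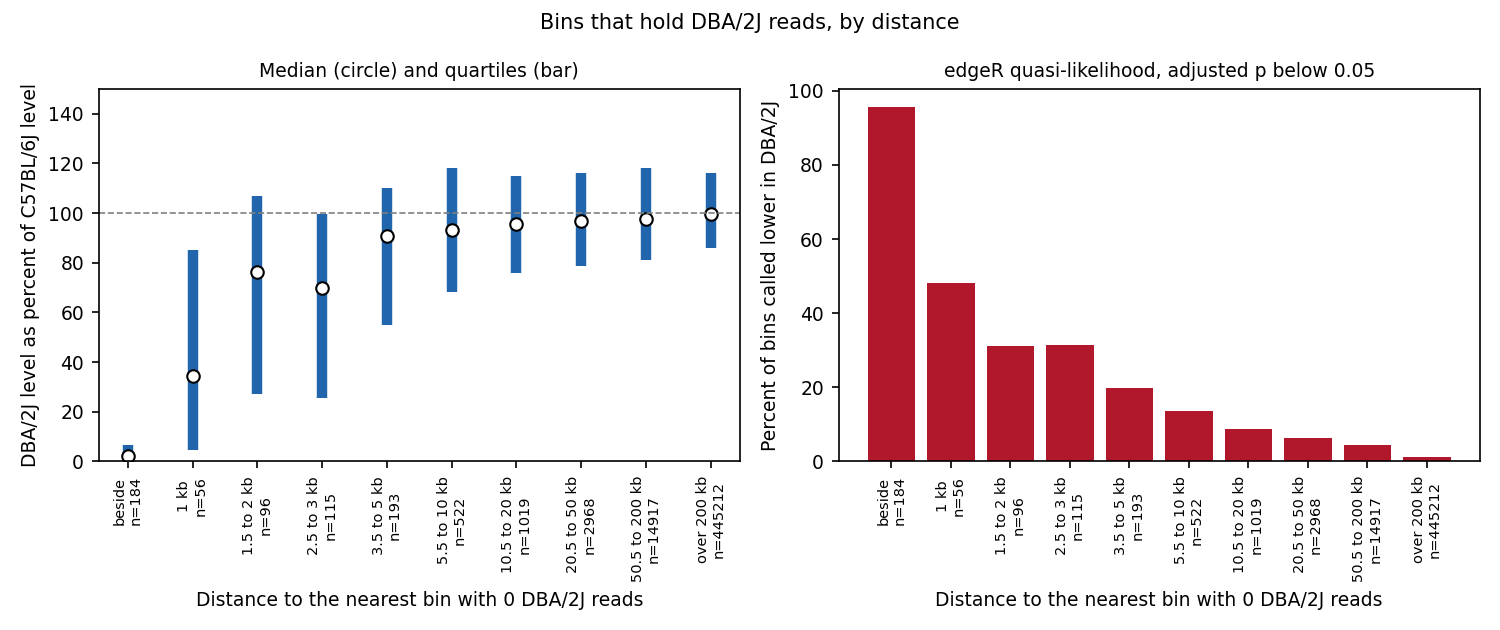
Bins that hold DBA/2J reads, by distance to the nearest member: DBA/2J level as percent of the C57BL/6J level (left; circle median, bar quartiles) and percent of bins called lower in DBA/2J (right). The median rises from 2.33% beside a member to 90.7% at 3.5 to 5 kb and 99.6% beyond 200 kb.

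A few neighbours were covered in DBA/2J. Of the 184, 8 were not called lower, and the highest was chr7:42965001-42965500 with 11, 8, 15, 7, 13 and 17 DBA/2J reads and 11, 8, 10, 9 and 16 C57BL/6J reads. It was followed by chr5:24704001-24704500 in Nub1, with 69 DBA/2J and 44 C57BL/6J reads, and by chr11:32674001-32674500 in Fbxw11, with 62 and 49. At these places a bin at full level in both strains lay directly beside a member.

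Age was compared within C57BL/6J, between 711 and 107 days (2 libraries each, with the mid-aged male as its own class). The rule used no difference among these libraries, yet the floor bears on them: each member needed 12 or more reads in 2 of the 5, and the 711-day libraries were deeper (8.07 and 8.34 M reads against 7.19 and 7.08 M). The edgeR quasi-likelihood fit called 4 of 455376 bins (0.000878%), and 0 of the 734 members. At an unadjusted p under 0.05 there were 91 members (12.4%), against 6.17% of all bins and 6.56% of bins on the same floor. DESeq2 gave 0 calls, and 8 members (1.09%) against 0.59% of all bins at an unadjusted p under 0.05. Of bins with a mean of at least 20 reads, well above the floor, 13 of 192 members had such a p (6.77%), against 6.82% of all, so the members' share was then near the background.

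The members' median log2 change with age was 0.32, against -0.01 over all bins and 0.02 on the same floor. Positive changes made up 551 of 734 (75.1%), against 49.5% of all bins and 51.9% on the same floor. Among members with a mean of at least 20 reads the median change was 0.11. CpG number moved with the change: the median over all bins rose from -0.03 with 3 to 5 CpGs to 0.42 with over 20, and in members from 0.17 to 0.53. Single libraries moved it too. The members' median was 0.19 without C57BL/6J replicate 2 (young), 0.20 without replicate 5 (old) and 0.55 without replicate 1 (young). The parts of the floor, of capture and of single libraries in this shift were not tested.

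The smallest p among members was 0.00114, for chr6:132020001-132020500, with 6 and 9 reads at 107 days and 23 and 26 at 711 days. Its log2 change was 1.52 with a standard error of 0.47 and an adjusted p of 0.605 by edgeR's quasi-likelihood test. It was followed by a member in Inpp4b, which encodes a phosphoinositide phosphatase, with 9 and 7 reads against 21 and 28, and by chr11:27959001-27959500 with 10 and 3 against 26 and 16. A member in Bcas3 had 3 and 4 reads against 15 and 16. A member at chr8:33223501-33224000 had 7 and 2 against 16 and 18. In these 5 members both old libraries lay above both young ones, and in none did the change pass the adjusted threshold.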

How the data were processed

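Per the labels' protocols, liver DNA was sheared, enriched for methylated fragments with a capture kit and sequenced as barcoded Ion Proton libraries. The submitters' processing notes list the tools FastQC, SAMtools, edgeR and Trimmomatic 0.30, and mm10 (GRCm38) as the build. Which aligner was run is not given in the sources used here. The counts, as deposited, are whole reads per 500-base bin from MEDIPS per the file headers, beside the number of CpGs of each bin. The relative methylation score is a fraction from 0 to 1, normalized by CpG density in MEDIPS per the file headers. All columns of values matched a sample.

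Members are the bins with a count of 0 in all 6 DBA/2J libraries. The members and all lists and tests were chosen with earlier results of these data known. The strain fit covered all 11 libraries and the age fit the 5 C57BL/6J libraries. Both used edgeR 4.0.16 in R 4.3.3 (TMM, filterByExpr, quasi-likelihood, Benjamini-Hochberg at 0.05 over all bins), tested on simulated data first. Prior degrees of freedom were large, so p-values rest on spread pooled over bins. DESeq2 1.42.0 was an alternative. Bins were placed with GENCODE M21. Copies of 32-mers were counted on both strands of the primary assembly, 30 per bin, and 469 per member. Sequences were aligned with blastn 2.17.0 and printed from RefSeq's GRCm38. Runs, the highest members, genes with most members, members in coding exons, listed families, bins with 1 DBA/2J read and members with the smallest age p were named by fixed rules; other features were named after their values were seen. Sequences of 3 members that the rule would have shown are not printed.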

Additional observations from a re-analysis of the deposited data

Results flagged for a closer look

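Among 29 sets of library values that describe the members, such as the level of a run or of a high member in the 5 C57BL/6J libraries, 2 had a library whose gap to the nearest other, as a share of the whole range, was large. Chance flags about 1 in 20 such sets. The member at chr6:112606001-112606500 in Gm5578 had 2.61 CPM in C57BL/6J replicate 2 against 7.65 to 8.64 CPM in the other libraries, a gap of 0.836 of the range on the CPM scale. The member at chr13:75930001-75930500 in Gm15528 had 3.57 CPM in the same library against 5.17 to 5.81 CPM, a gap of 0.714 of the range on that scale.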

How the results depend on the processing

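The number of members depends on the rule: 1138 bins had at most 1 DBA/2J read, 1663 had at most 3, and 192 members had a mean of at least 20 C57BL/6J reads. Leaving out a DBA/2J library gave 800 to 835 bins. With no bin allowed between members there were 559 runs, and with up to 5 bins between them 522. The median C57BL/6J level of the members was 1.96 to 2.16 CPM without each C57BL/6J library. With up to 10% repeated 32-mers allowed, 18.1% of members counted as unique. In the strain fit, DESeq2 called 4657 bins lower and 1596 higher, and a mean of at least 20 reads, which left 114421 bins, gave 643 and 721. Leaving out single libraries gave 5105 to 7534 lower and 2112 to 4551 higher bins. Of bins beside members, 92.4% to 96.2% were lower without single libraries. With strain as the sole term, 111 of 115 tested were lower. Of the nearest bins within 5 kb, 72.4% were lower. The age fit called 3 bins lower and 1 higher over the table. Without a filter, and by DESeq2, it called 0 and 0, with a mean of at least 20 reads 1 and 0, and with 2 young and 2 old libraries alone 0 and 1. Without single libraries it called 0 to 5 lower and 0 to 4 higher. No member was called in any of these age fits. Against bins that reach the table's floor in C57BL/6J alone, an alternative chosen after seeing the data, the share with an unadjusted age p under 0.05 was 6.56% in place of 6.17%, and the median of other bins with 6 to 10 CpGs was 1.87 CPM in place of 1.71. No paired analysis was possible because the 2 strains share no replicate number in the labels. A median of 13 to 16 reads per bin and library limits what the age comparison can show.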
